A study of Homo sapiens with 4 samples.

Results

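Expression of the death receptors and the proteins that signal directly below them was examined in Hs746T cells. Hs746T is an established line of gastric carcinoma that carries both an exon-skipping mutation and an amplification of MET, the receptor tyrosine kinase for hepatocyte growth factor. The members were taken by name: the receptors FAS, TNFRSF10A, TNFRSF10B, TNFRSF10C, TNFRSF10D and TNFRSF1A, the adaptor FADD, the initiator caspases CASP8 and CASP10, and the caspase inhibitor CFLAR. These are 10 of the 19740 genes that could be named on the array, and every probe designed for them was used, 17 in all. Hs746T cells received either DMSO, the solvent control, or PHA665752, a small molecule inhibitor of MET, and other cells either a scrambled control siRNA (sc siRNA) or MET siRNA, with harvest 48 h after transfection. The dose and duration of PHA665752 for the arrays are not given in the sources used here. Each of the 4 conditions was hybridised to 1 single-colour Agilent human array. There were no replicates, so no statistical test was possible and every ratio compares 2 arrays. No other line was profiled on these arrays, and all 4 share its mutated and amplified MET.

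Death receptors are members of the TNF receptor superfamily whose cytoplasmic death domain recruits adaptor proteins once the ligand has brought the receptors together. FAS binds FAS ligand, TNFRSF10A and TNFRSF10B (TRAIL receptors) bind TRAIL, and TNFRSF1A is the more widely expressed receptor for TNF. FAS and the TRAIL receptors bind FADD, which gathers CASP8 and CASP10 into a signalling complex where these proteases activate each other, while TNFRSF1A first binds TRADD and more often leads to NF-kappaB signalling. TNFRSF10C, held in the membrane by a lipid anchor, and TNFRSF10D, whose death domain is truncated, bind TRAIL without passing on a death signal and are known as decoy receptors. CFLAR encodes c-FLIP, a relative of CASP8 that takes its place in the complex.

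Signals are given as Feature Extraction's processed signal, a linear fluorescence intensity after background subtraction. Ratios are log2 differences after each array was scaled to its own 75th percentile, which lay at a signal of 990.1 under DMSO, 853 under PHA665752, 831 under sc siRNA and 858 under MET siRNA. Each signal carries an error estimated by Feature Extraction, about 10.0% of the signal at the median over member probes, which gave an error of 0.204 to 0.215 for a log2 ratio of a member. This error does not include differences between cultures. Of the 17 member probes, 13 were well above background on every array and 14 had a usable spot on every array. The MET probe, spotted 10 times, was lower on the MET siRNA array, as labelled, and under PHA665752: its log2 ratio was -0.93 for PHA665752 over DMSO, -1.33 for MET siRNA over sc siRNA and 0.032 for sc siRNA over DMSO. Among markers of an epithelial cell, EPCAM, KRT8, KRT18 and KRT19 were well above background on every array. CDH1, with signals of 10.4 to 33.0, was so on every array except MET siRNA. Of the leukocyte markers reported, CD3E was not above background, while PTPRC (signals of 22.7 to 37.8) and CD14 (113 to 140.1) were. The endothelial markers PECAM1 and CDH5 were also above background, with summed signals of 370 to 1934, in which PECAM1 was at -2.39 on the log2 scale under PHA665752 and CDH5 at -0.21. Of the mesenchymal markers, CDH2 and FN1 were above background, with summed signals of 4322 to 7787, and FN1 was at 1.96 under PHA665752. Of the gastric markers TFF1 was above background and GKN1 was not. The part of other cell types in the member values was not tested.

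Promoter sequence was looked up because FAS and FADD were lower under PHA665752 while TNFRSF1A was higher. The FADD value is one with background outlier marks ignored, and the TNFRSF1A ratio is within 2 times its error, as given below. The windows are those of RefSeq on GRCh38.p14, each 300 bases long, from 250 bases before to 50 bases after an annotated transcript start. Windows of 5 members were used (FAS, TNFRSF1A, FADD, CASP8 and CFLAR). The first window of each of the 3 genes is printed on the strand of the gene, with the motifs found in capitals. FAS lies on the forward strand at chr10:88990548-88990847, FADD on the forward strand at chr11:70203046-70203345 and TNFRSF1A on the reverse strand at chr12:6342027-6342326.
FAS: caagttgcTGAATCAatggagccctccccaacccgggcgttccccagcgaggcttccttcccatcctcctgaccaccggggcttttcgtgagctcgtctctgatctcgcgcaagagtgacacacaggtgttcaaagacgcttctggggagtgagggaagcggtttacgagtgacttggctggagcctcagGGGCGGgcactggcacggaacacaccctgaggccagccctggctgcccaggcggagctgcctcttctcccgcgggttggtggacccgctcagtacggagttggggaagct
FADD: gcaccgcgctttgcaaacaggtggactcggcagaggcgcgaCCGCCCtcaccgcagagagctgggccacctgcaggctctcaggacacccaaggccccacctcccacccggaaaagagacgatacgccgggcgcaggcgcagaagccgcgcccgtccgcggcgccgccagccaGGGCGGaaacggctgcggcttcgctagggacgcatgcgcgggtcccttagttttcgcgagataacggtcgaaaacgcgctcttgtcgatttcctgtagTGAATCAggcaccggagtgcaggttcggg
TNFRSF1A: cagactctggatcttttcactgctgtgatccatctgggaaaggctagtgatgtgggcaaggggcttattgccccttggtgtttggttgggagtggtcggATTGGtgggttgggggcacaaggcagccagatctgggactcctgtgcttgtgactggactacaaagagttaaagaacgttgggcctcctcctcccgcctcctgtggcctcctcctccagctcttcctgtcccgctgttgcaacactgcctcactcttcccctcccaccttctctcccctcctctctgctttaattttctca
The motifs searched, on both strands, were the GC box (GGGCGG), the TATA box (TATAAA), the CCAAT box (CCAAT), the E-box (CACGTG), the AP-1 site (TGANTCA) and the CRE (TGACGTCA). None of these motifs overlaps another in the 3 windows shown. The FAS window held 1 GC box and 1 AP-1 motif, and the FADD window held 2 GC boxes and 1 AP-1 motif. GC boxes were also found in the first windows of CASP8 and CFLAR. AP-1 motifs were absent from those first windows and found only in other windows of these genes. CASP8 and CFLAR were at 0.031 and 0.21 on the log2 scale under PHA665752. The TNFRSF1A window held 1 CCAAT box, in the reverse orientation, and no match to the other motifs. Of all 35116 promoter windows, 45.0% held a GC box, 34.6% a CCAAT box and 7.71% an AP-1 motif. The other FAS windows, which overlap the one shown or lie downstream of it, held GC boxes and no AP-1 motif, so the AP-1 match depends on which start is taken. GC content was 63.0% for FAS, 66.7% for FADD and 55.7% for TNFRSF1A, against a median of 58.7% over all windows. These matches describe the letters of the reference, and binding was not measured.

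Of the receptors that carry a death domain, FAS, TNFRSF10A and TNFRSF10B were lower under PHA665752 than under DMSO, by 1.87-fold, 1.66-fold and 1.46-fold, whereas TNFRSF1A was 1.32-fold higher. By the probe that stands for each gene, all of these lie within 2-fold. Under MET siRNA the ratios of the same genes against sc siRNA lay between -0.39 and 0.19 on the log2 scale. The median log2 ratio over these 4 receptors was -0.64 under PHA665752, -0.020 under MET siRNA and 0.18 between the control arrays.

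The probe that stands for FAS was spotted 10 times on each array. Its processed signal was 1804 ± 87.1 (SD, n = 10 spots) under DMSO and 831 ± 22.1 (n = 10 spots) under PHA665752. It was 1276 ± 30.5 (n = 10 spots) under sc siRNA and 1285 ± 24.7 (n = 9 spots) under MET siRNA. Relative to the 75th percentile of the array, the spots ranged from 1.65 to 1.96 under DMSO and from 0.925 to 0.999 under PHA665752, so the lowest spot under DMSO was above the highest under PHA665752. The spots under sc siRNA, 1.49 to 1.61, overlapped those under MET siRNA, 1.45 to 1.53. The log2 ratio was -0.90 (SD 0.081 between spots) for PHA665752 over DMSO, and -0.037 (SD 0.044) for MET siRNA over sc siRNA. The control arrays themselves differed by -0.25 (SD 0.079).

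**Figure D1:**
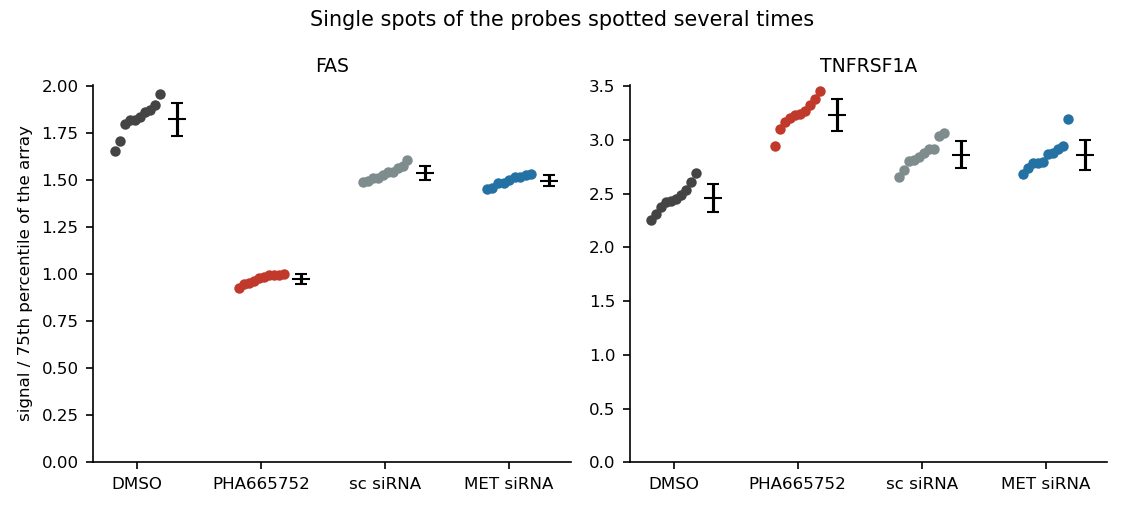
Each point is 1 spot of the FAS probe (left) or the TNFRSF1A probe (right) on 1 array, as processed signal divided by the 75th percentile of that array, with the spots in order of value within an array. The bars show the mean and the SD over spots. FAS spots under PHA665752 reach at most 0.999 and those under DMSO start at 1.65, while TNFRSF1A spots under PHA665752 lie above those under DMSO.

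The other FAS probes gave like ratios for PHA665752 over DMSO. A_33_P3332112 had signals of 372 under DMSO, 175 under PHA665752, 282 under sc siRNA and 221 under MET siRNA, for log2 ratios of -0.87 and -0.40 in the 2 treatment comparisons. A_33_P3381127 had signals of 1276, 549 and 882 on the first 3 arrays, which is 2.01-fold lower under PHA665752, and its spot on the MET siRNA array was left out because of its background mark. Thus all 3 probes placed FAS lower under PHA665752, by 1.83-fold to 2.01-fold, and their log2 ratios spread from -0.40 to -0.037 under MET siRNA.

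TNFRSF10A, or TRAIL receptor DR4, had processed signals of 524 under DMSO, 272 under PHA665752, 605 under sc siRNA and 478 under MET siRNA. Its log2 ratio was -0.73 for PHA665752 and -0.39 for MET siRNA, and the second is within 2 times its error. The control arrays differed by 0.46 in the other direction, a larger difference than that between MET siRNA and sc siRNA. TNFRSF10B, or DR5, had signals of 2860 under DMSO, 1686 under PHA665752, 2646 under sc siRNA and 3117 under MET siRNA. Its log2 ratio was -0.55 under PHA665752 and 0.19 under MET siRNA, against 0.14 between the controls, and the value for MET siRNA turned to -0.11 when arrays were scaled to the median of the probes well above background. TNFRSF10A and TNFRSF10B, which bind the same ligand, thus both had their lowest signal under PHA665752.

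TNFRSF1A was also spotted 10 times on each array. Its processed signal was 2433 ± 131 (SD, n = 10 spots) under DMSO, 2759 ± 124 under PHA665752, 2379 ± 105 under sc siRNA and 2453 ± 122 under MET siRNA. As scaled signals, the spots ranged from 2.25 to 2.69 under DMSO and from 2.94 to 3.46 under PHA665752, with no overlap between these arrays. The ranges under sc siRNA (2.66 to 3.06) and MET siRNA (2.69 to 3.19) overlapped. The log2 ratio was 0.40 (SD 0.10 between spots) for PHA665752 over DMSO and 0.22 for sc siRNA over DMSO. For MET siRNA over sc siRNA it was -0.0028, and its sign differed between settings. The PHA665752 ratio of TNFRSF1A, though clear of the spot noise, was within 2 times the error that Feature Extraction gives.

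The decoy receptors parted from each other. By the probe that stands for each gene, TNFRSF10C was the only member past 2-fold with a treatment, 4.59-fold higher under PHA665752, where 13.1% of all genes were past 2-fold higher, and TNFRSF10D was 1.61-fold lower on the same array. TNFRSF10C had processed signals of 84.0 under DMSO, 333 under PHA665752, 63.8 under sc siRNA and 110 under MET siRNA, and was well above background on each. Its log2 ratio was 2.20 for PHA665752 over DMSO and 0.75, or 1.68-fold, for MET siRNA over sc siRNA. The controls differed by -0.14, within the error, so both treated arrays stood above both control arrays. TNFRSF10C ranked 268 from the top of 14322 genes under PHA665752 and 500 from the top of 13647 under MET siRNA. A single probe with 1 spot per array stands behind these values, and whether transcripts of the related TRAIL receptor genes also bind this probe was not tested.

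TNFRSF10D had processed signals of 1461 under DMSO, 781 under PHA665752, 609 under sc siRNA and 546 under MET siRNA. The DMSO array stood above the other 3. Its log2 ratio was -0.69 under PHA665752 and -0.20 under MET siRNA. The largest difference of TNFRSF10D lay between the 2 control arrays, -1.01 or 2.01-fold lower under sc siRNA, which placed it 162 from the bottom of 14274 genes. With another background correction, normexp, this difference was -0.88 and no longer past 2-fold. Transfection and differences between cultures cannot be told apart here, since each control is 1 array.

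**Figure D2:**
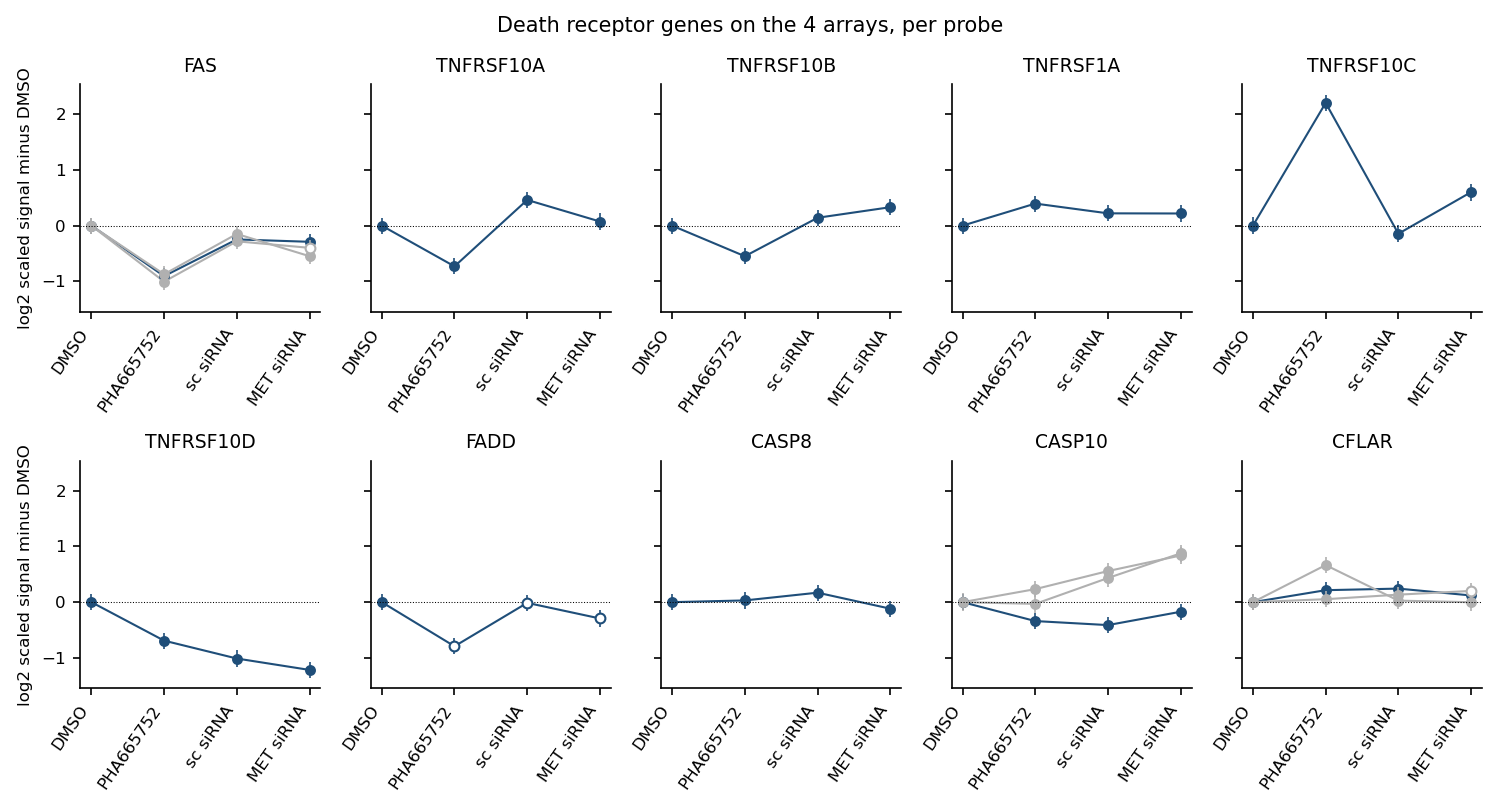
Log2 scaled signal of each member probe on the 4 arrays relative to its own value under DMSO. Blue marks the probe that stands for the gene and grey its other probes, open circles are spots whose background was marked as an outlier, and vertical bars are the error of a single signal from Feature Extraction. The CASP10 probe above background under PHA665752 alone is not drawn. TNFRSF10C has its peak under PHA665752, and FAS, TNFRSF10A, TNFRSF10B and FADD have their lowest point there.

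FADD, the adaptor shared by FAS and the TRAIL receptors, had signals of 82253 under DMSO, 40978 under PHA665752, 68413 under sc siRNA and 58213 under MET siRNA. The background around its spot carried an outlier mark on all arrays except DMSO, so no ratio was formed with the settings used for the other members. With these marks ignored, the log2 ratio was -0.80 for PHA665752, -0.26 for MET siRNA and -0.0028 for sc siRNA over DMSO. Read in this way, FADD was lower under PHA665752 by about as much as FAS and TNFRSF10A. FADD is left out of the counts and medians below.

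CASP8, the first of the initiator caspases, differed little between arrays. It had processed signals of 330 under DMSO, 291 under PHA665752, 312 under sc siRNA and 264 under MET siRNA, and its log2 ratios of 0.031 and -0.29 in the treatment comparisons were both within 2 times their error. CASP8 was lowest under MET siRNA, while the control arrays differed by 0.17.

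CASP10 was covered by 4 probes that disagreed. A_33_P3383283, which stands for the gene, had signals of 36775 under DMSO, 25062 under PHA665752, 23206 under sc siRNA and 28293 under MET siRNA, with log2 ratios of -0.34 and 0.24 in the treatment comparisons and -0.41 between controls. A_33_P3504659, designed against the same RefSeq transcript, had signals of 480, 487, 593 and 743 in the same order and log2 ratios of 0.23, 0.28 and 0.56. These probes therefore differ in sign for PHA665752 and for the controls, and both were higher under MET siRNA than under sc siRNA. A_24_P3045 had signals of 53.6, 45.2, 60.7 and 85.1, with log2 ratios of -0.031, 0.44 and 0.43. The remaining probe, A_33_P3255075, was well above background under PHA665752 alone, at 38.9, which gives at least 4.16-fold over DMSO and no other ratio. All 3 CASP10 probes with a MET siRNA ratio were higher, from 0.24 to 0.44.

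CFLAR, the inhibitor, stayed near its control values by the probe that stands for it, A_23_P156807, with signals of 756 under DMSO, 756 under PHA665752, 751 under sc siRNA and 712 under MET siRNA. Its log2 ratios of 0.21 for PHA665752, -0.12 for MET siRNA and 0.24 for sc siRNA over DMSO were each within 2 times their error. A_23_P209394 had signals of 2424, 2167 and 2232 on the first 3 arrays, a log2 ratio of 0.053 under PHA665752, and a marked spot under MET siRNA. A_24_P120115, designed against another transcript of the gene, had signals of 147, 201, 126 and 127 and a log2 ratio of 0.66 under PHA665752 and -0.029 under MET siRNA. The CFLAR probes thus spread from 0.053 to 0.66 under PHA665752.

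Set against all genes, the members did not stand out by number. Under PHA665752, 1 of 9 members with a ratio was past 2-fold higher (TNFRSF10C) and 0 past 2-fold lower, where 13.1% of all genes were past 2-fold higher and 8.04% past 2-fold lower. Counted by their error, 5 of 9 members (FAS, TNFRSF10A, TNFRSF10B, TNFRSF10C and TNFRSF10D) had a PHA665752 ratio past 2 times the error, and so had 51.9% of all genes. Under MET siRNA, 0 of 9 members were past 2-fold, against 2.04% of all genes higher and 0.696% lower. TNFRSF10C was 1 of 9 past 2 times its error, against 13.4% of all genes. Between the control arrays, 1 of 9 members was past 2-fold lower (TNFRSF10D) and 0 past 2-fold higher, against 1.16% of all genes lower and 2.89% higher. There, 3 of 9 members (TNFRSF10A, TNFRSF10D and CASP10) were past 2 times their error, against 17.2% of all genes. CASP10 is counted by the probe that stands for it, at -0.41. Other CASP10 probes were at 0.56 and 0.43 between the controls, in the other direction. The DMSO array enters both the PHA665752 and the control comparison, and the sc siRNA array enters both the MET siRNA and the control comparison.

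The median log2 ratio of the 9 members was -0.34 under PHA665752, where that of all genes was 0.075. It was -0.037 under MET siRNA, where that of all genes was -0.017. Between the controls it was 0.14, where that of all genes was -0.010. The PHA665752 median is the value of CASP10 by the probe that stands for it. Another CASP10 probe was at 0.23, so this median depends on the choice of probe. By the probe that stands for each gene, the 5 members past 2 times the error under PHA665752 were receptors. Another probe of CFLAR (0.66) was also past it, and FADD is not counted, so this depends on the choice of probe. The CASP10 bound of at least 4.16-fold, log2 2.06, is a lower limit. It was not set against an error, since that probe was not well above background under DMSO. In the order of their PHA665752 ratios, FAS, TNFRSF10A, TNFRSF10D and TNFRSF10B each differed from the next by less than the error of a difference, about 0.29, and TNFRSF10C was set apart from the next member, TNFRSF1A.

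**Figure D3:**
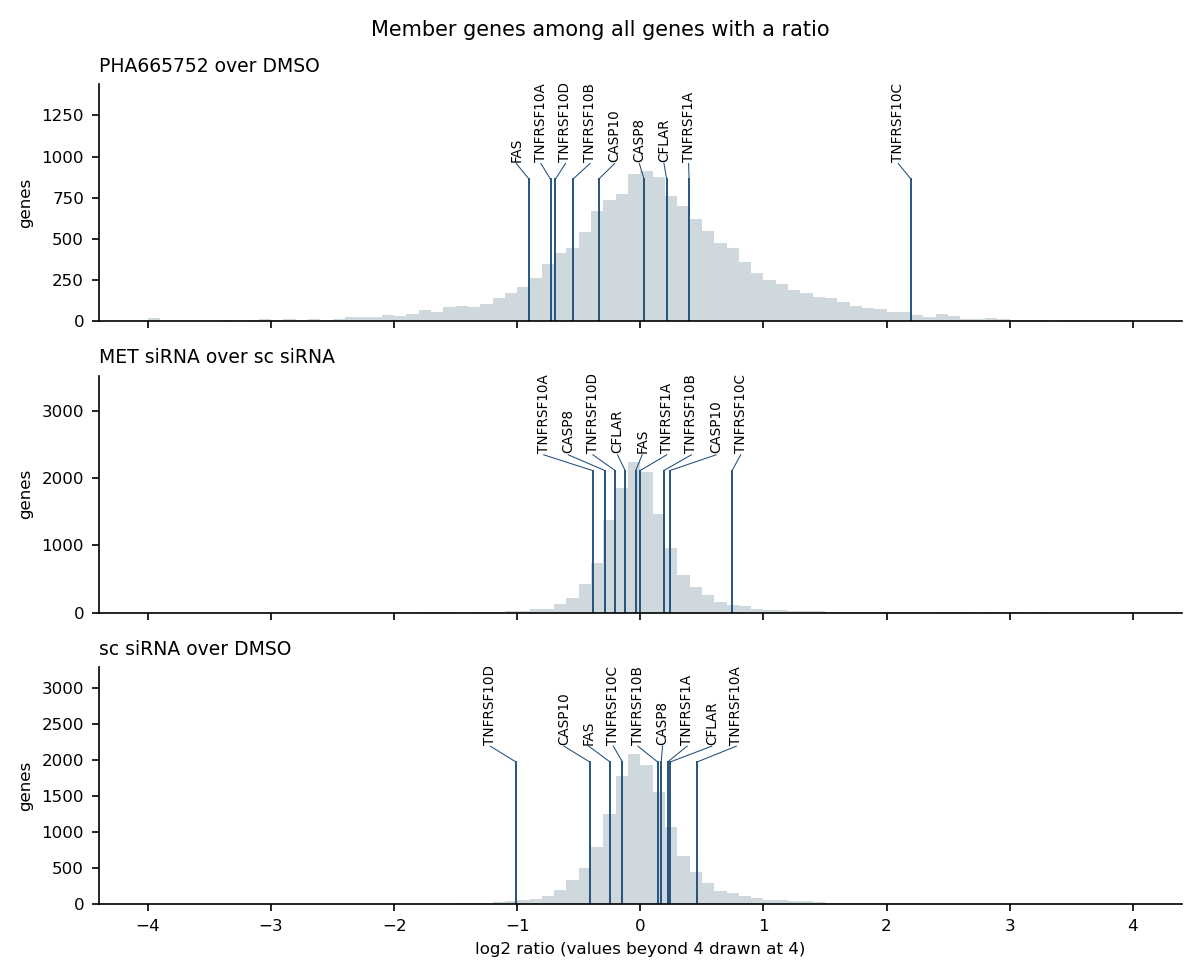
Grey bars count all genes by log2 ratio in each comparison, and blue lines mark the members. In the PHA665752 comparison FAS, at percentile 9.46, and TNFRSF10C lie on opposite sides of the distribution, and in the MET siRNA comparison the members other than TNFRSF10C lie from -0.39 to 0.24.

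Differences between members within a comparison do not depend on how arrays are scaled, except for quantile normalization. Under PHA665752, the log2 ratio of TNFRSF10C exceeded that of TNFRSF10A by 2.93, that of TNFRSF10B by 2.75 and that of TNFRSF10D by 2.89, each with an error of about 0.29. Under MET siRNA the same differences were 1.13, 0.56 and 0.95, and the difference from TNFRSF10B was within 2 times its error of 0.30. The decoy TNFRSF10C therefore was set apart from TNFRSF10A, a signalling receptor for the same ligand, by 7.62-fold with the inhibitor and 2.19-fold with the siRNA. For TNFRSF10B, another such receptor, the differences were 6.72-fold and 1.47-fold. With the normexp background correction these differences from TNFRSF10A were 2.21 and 0.88 on the log2 scale in place of 2.93 and 1.13. Between the controls the difference of TNFRSF10C and TNFRSF10A was -0.61, in the other direction. TNFRSF1A exceeded FAS by 1.30 under PHA665752, by 0.034 under MET siRNA and by 0.47 between the controls.

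Over the 4 arrays, the member patterns most alike were those of TNFRSF1A and CFLAR, at a distance of 0.163, and of CASP8 and CFLAR, at 0.185. The distance is the Euclidean distance between the log2 scaled signals of a pair of genes after each was centred on its own mean over the arrays. Genes that differ little between arrays lie close by this measure. By the probe that stands for each gene, TNFRSF1A, CASP8 and CFLAR had no ratio past 2 times its error. The distances were not set against the error of a signal. FAS and TNFRSF10B lay at 0.439 and FAS and TNFRSF10A at 0.523. TNFRSF10A and TNFRSF10C were farthest apart, at 2.68. TNFRSF10C had the largest ratio in both treatment comparisons, and among 13074 genes with a value well above background on every array the closest to it were CLIP2 (distance 0.0836), LMNTD2 (0.0918) and CGNL1 (0.0949). CLIP2 had log2 ratios of 2.28 under PHA665752 and 0.83 under MET siRNA, LMNTD2 of 2.20 and 0.62, and CGNL1 of 2.19 and 0.62. The likeness rests on 4 arrays, 1 per condition.

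The pathway around the members was described with 39 further genes (ligands, other receptors, complex members and modifiers, and genes downstream), all of which were on the array. Under PHA665752, 34 had a ratio, 19 higher and 15 lower, with a median of 0.059, and 3 were past 2-fold higher and 3 past 2-fold lower. Under MET siRNA, 33 had a ratio, 16 higher and 17 lower, with a median of -0.017 and 0 past 2-fold. Between the controls, 35 had a ratio, 22 higher and 13 lower, with a median of 0.19, and 3 were past 2-fold higher and 0 past 2-fold lower. Of all genes, 7863 were higher and 6459 lower under PHA665752, 6416 higher and 7231 lower under MET siRNA, and 6916 higher and 7358 lower between the controls, and the shares past 2-fold are those given above.

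Of the 4 ligands, TNFSF10, which encodes TRAIL, was the only one well above background on every array. Its signals were 182 under DMSO, 164 under PHA665752, 1506 under sc siRNA and 2929 under MET siRNA. Both arrays of transfected cells stood above both others, and the control arrays differed by 9.89-fold (log2 3.31). MET siRNA over sc siRNA gave 0.91 and PHA665752 over DMSO gave 0.064. A second TNFSF10 probe, spotted 10 times, gave 3.31, 0.94 and 0.17 for the same comparisons. BIRC3, an inhibitor of apoptosis of the TNF receptor complex, had signals of 28.2, 30.4, 201 and 287, with log2 3.09 between the controls, and was named after its values were seen. TNF was well above background on the sc siRNA array alone, at 14.1, and FASLG and LTA on none.

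Of the genes past 2-fold under PHA665752, NGFR, a receptor with a death domain, was higher (24.0 to 66.2, log2 1.68), as was CYLD, a deubiquitinase of the TNF receptor complex (207 to 367, log2 1.04). RIPK3, a kinase of necroptosis, was not above background under DMSO and at 36.8 under PHA665752, at least 3.36-fold higher. MLKL, the effector that RIPK3 phosphorylates, was lower (4158 to 1366, log2 -1.39). TNFAIP3, which encodes the NF-kappaB inhibitor A20, was lower (2006 to 446, log2 -1.96), and so was TRAF2, an adaptor of the TNF receptor complex (13790 to 5887, log2 -1.01, with -0.84 from a second probe). Under MET siRNA the log2 ratios of these genes were 0.48 for NGFR, 0.073 for CYLD, 0.27 for RIPK3, -0.47 for MLKL, -0.35 for TNFAIP3 and -0.090 for TRAF2. TNFAIP3 was also 1.22 higher on the log2 scale under sc siRNA than under DMSO. TNFRSF21, or death receptor DR6, had signals of 2475 under DMSO and 5648 under PHA665752 (log2 1.40), but its spot on the MET siRNA array could not be used, so it is not in the counts.

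Below the initiator caspases, BID, the CASP8 substrate that links to mitochondria, had log2 ratios of -0.60 for PHA665752 and -0.10 for MET siRNA. XIAP, which inhibits executioner caspases, was at 0.73 under PHA665752. TRADD, the adaptor of TNFRSF1A, was at 0.96 under PHA665752 and 0.25 under MET siRNA, with 0.58 between the controls. TNFRSF25, a death receptor that also binds TRADD, was at -0.59, -0.56 and -0.23 in the same comparisons. Under PHA665752 TNFRSF1A and its adaptor TRADD thus both had ratios above 0, and FAS and FADD both had ratios below 0, FADD with its marks ignored. The TNFRSF1A ratio was within 2 times its error, and TRAF2, another adaptor of the TNF receptor complex, was at -1.01. RBCK1, of the ubiquitin ligase complex below TNFRSF1A, had probes of both signs under PHA665752, from -0.30 to 0.82.

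**Figure D4:**
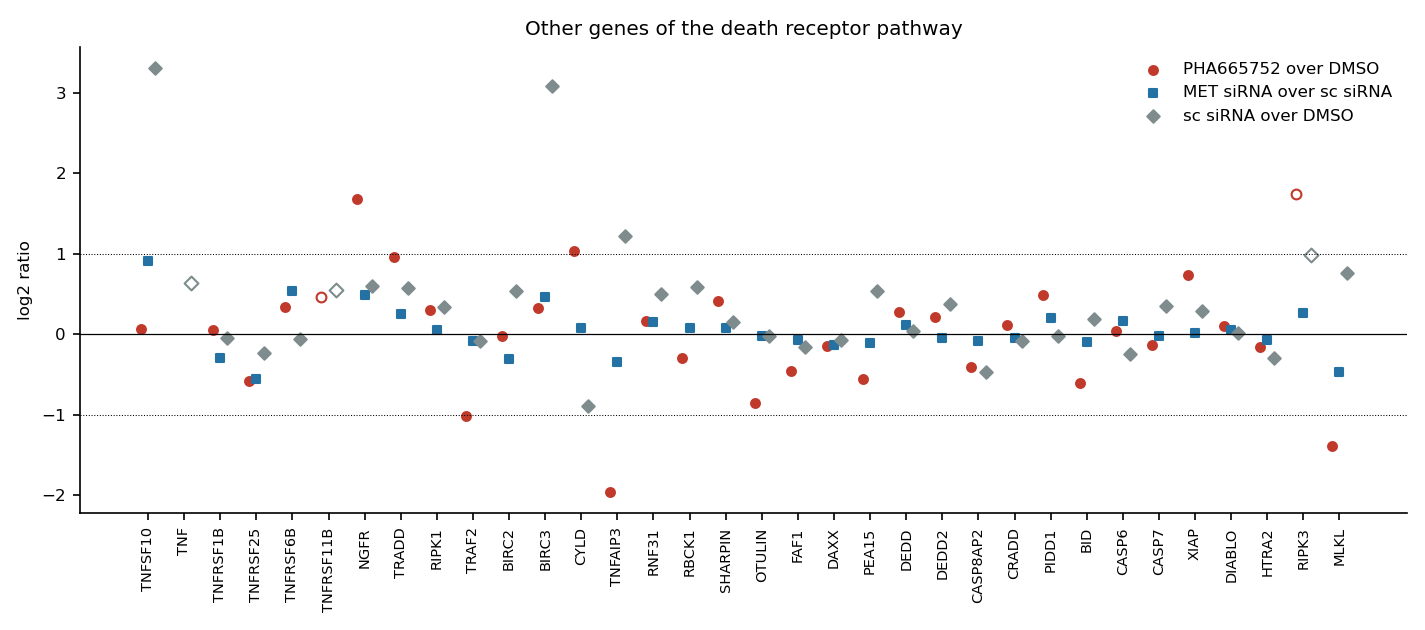
Log2 ratios of pathway genes with at least 1 ratio in the 3 comparisons, with 1 gene left out, with 2-fold as dotted lines and open symbols for bounds, where the gene was above background on a single array of the pair. TNFSF10 and BIRC3 stand out in the comparison of the control arrays, and TNFAIP3, MLKL and NGFR in the PHA665752 comparison.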

How the data were processed

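Total RNA of 4 Hs746T samples was labelled with Cy3 and hybridised to Agilent human 44K V2 arrays. The authors deposited the scanner output of Agilent Feature Extraction (11.5.1.1 by its header, 10.7 by the methods), whose processed signal is a linear intensity per spot after background subtraction, not normalized between arrays. The value table of the series, also deposited by the authors as linear intensity, holds the processed signal of probes spotted once to within 0.050 and served only as an alternative.

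Control spots were left out, as were spots with an outlier mark for feature or background (1.69% to 5.58% of 43118 spots per array). The share of 5.58% was that of the MET siRNA array, and the other arrays had at most 2.21%. Log2 signals were averaged per probe and reduced by the array's 75th percentile. No spot was saturated. Well above background means that no fewer than 50% of the usable spots of a probe carried this mark (61.1% to 68.2% of 34127 probes). The MET siRNA array was the one at 61.1%, and the others were at 67.4% or more. Where a pair of arrays had the probe above background on 1 side, the ratio is a bound, computed against the lowest signal well above background on the other array or the probe's own if higher, and where on neither side, there is none. Probes were named through RefSeq accessions (25771 probes, 75.5%), and of the probes of a gene with a value on each array the brightest stood for it. Array annotation was on GRCh37, and GRCh38.p14 tables gave names and promoters only.

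Ratios were formed for PHA665752 over DMSO, for MET siRNA over sc siRNA and, for the spread between controls, for sc siRNA over DMSO. With 1 array per condition there was no test. Precision rests on Feature Extraction's error per signal and on probes spotted 10 times (noise of a log2 ratio 0.0779), and on the number of arrays. The 9 alternatives were scaling to the 50th percentile, quantile normalization, scaling to the median of probes well above background, normexp with an offset of 50, background outlier marks ignored, the value table, probes above background on both arrays only, no filter on dim probes, and the median of all probes of each gene. Python 3.11.15 and R 4.3.3 with limma 3.58.1 were used, and the calculation was tested on simulated data.

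The members and gene lists were chosen with earlier results of these data known. All members and probes are named. Of the pathway genes, the ligands and those past 2-fold with a treatment were to be named. BIRC3, TRADD, BID, XIAP, RBCK1, TNFRSF25 and TNFRSF21 were added to these with their values known. Some listed genes are not reported here.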

Additional observations from a re-analysis of the deposited data

Results flagged for a closer look

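For 2 members the PHA665752 and MET siRNA comparisons pointed in opposite directions, each by more than 2 times the noise between spots of a log2 ratio (0.0779). TNFRSF10B had a log2 ratio of -0.55 for PHA665752 over DMSO and 0.19 for MET siRNA over sc siRNA. CASP10 had -0.34 and 0.24 by the probe that stands for it. With 1 array per condition the difference between the comparisons was not tested, both MET siRNA ratios are within 2 times the error that Feature Extraction gives, and a second CASP10 probe was above 0 in both comparisons (0.23 and 0.28).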

How the results depend on the processing

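No paired analysis was possible because each condition has 1 array. Over the 9 alternatives, the count of members past 2-fold differed from that reported in 2 instances: it was 2 for PHA665752 over DMSO with scaling to the 50th percentile, where FAS (lower) joined TNFRSF10C, and 0 for sc siRNA over DMSO with normexp, where TNFRSF10D was at -0.88. The other 25 counts did not differ by over 1.5 times. The sign of the ratio was kept in all alternatives by 6 of 9 members with PHA665752, 6 of 9 with MET siRNA and 8 of 9 between the controls. CASP10 turned in each comparison, CASP8 and CFLAR with PHA665752, and TNFRSF10B and TNFRSF1A with MET siRNA. TNFRSF10C ranged from 1.68 to 2.20 with PHA665752 and from 0.45 to 0.76 with MET siRNA, and FAS from -1.15 to -0.87 with PHA665752. The TNFRSF10C value of 0.45 came with scaling to the median of probes well above background. Scaling to the 50th percentile moved the median of all genes by -0.24 with PHA665752, scaling to the median of probes above background moved it by -0.30 with MET siRNA, and leaving out the filter on dim probes moved it by 0.13 with PHA665752. The cause was not tested.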
